A study of Mus musculus with 11 samples.

Results

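The barcodes described here began with the bases GATC and were uniformly small. They accounted for 4843 of the 135360 barcode listings in 11 lung libraries, 3.58% of the listings and 0.0246% of the reads. A listing is a barcode with its read count in a library, and the first 4 of its 20 bases were taken to name a line of cells, an inference from the layout. GATC was chosen from the read counts themselves. For each of 33 identifiers with at least 100 listings of 2 or more reads, the 99th percentile of reads was divided by the median, and GATC stood at 3.33, with a 99th percentile of 20 reads and a median of 6. Identifiers ACCC and CCCC were lower still, at 2.50 and 3.00, but had only 202 and 205 such listings, and 93.9% and 90.3% of all their listings held a single read. The line sought was one of small barcodes, not of single reads, with a ratio of about 3.3, and GATC was taken as that line. It was the lowest of the 25 identifiers with 500 or more listings of 2 or more reads. The next above it were TCCA at 13.8 and GTTG at 24.0. These ratios describe how the line was picked and were not tested.

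The libraries came from lungs of 129/Bl6 F1 mice pre-treated with vehicle (6 samples) or with 6-hydroxydopamine, called 6-OHDA (5 samples), collected 3 weeks after intravenous injection of barcoded lines of pancreatic ductal adenocarcinoma (PDAC). 6-OHDA destroys sympathetic nerve terminals, and vehicle is its control. All mice received the same pool, and the host strain was syngeneic to it. The labels do not say that each library came from a different mouse, so p-values measure the spread between these libraries. Library depth ran from 6436469 to 15665492 reads.

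In barcode tracking of metastasis, each tumour cell carries a random sequence in its genome, so that the reads of a barcode follow the size of the colony that the cell founded. A spike-in is a separate, barcoded cell line added to the tissue in a fixed amount before DNA extraction. Its reads fall as a share of the library when the tissue holds more tumour DNA, which turns read shares into tumour burden. The labels state that a benchmark spike-in line was added to each weighed lung, but give neither its identifier nor the number of cells, and the sources used here do not name the line behind GATC. Burden values below therefore hold only under the assumption that GATC was the spike-in.

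GATC barcodes had the same layout as all others, with 12 free bases in 4 blocks, each closed by a fixed G. The following 3 are shown because many barcodes of the line recurred between libraries. Barcode a was found in the most, 6, and barcodes b and c had the most reads of the 15 found in 5. Capitals mark the identifier.

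Recurring barcode a: GATCgaggtcggcaagggcg

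Recurring barcode b: GATCcatggcagaatgagag

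Recurring barcode c: GATCcaagtcggtatgattg

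Barcode a had 35 reads in all, at 4, 17 and 1 reads in vehicle samples 1, 4 and 5 and at 2, 6 and 5 reads in 6-OHDA samples 2, 3 and 4. Barcode b had 9, 10 and 6 reads in vehicle samples 1, 4 and 6 and 4 and 11 reads in 6-OHDA samples 2 and 3. Barcode c had 4 and 13 reads in vehicle samples 1 and 2 and 2, 12 and 7 reads in 6-OHDA samples 2, 3 and 5. All were thus found in both groups, and none was large anywhere.

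The largest GATC barcodes are shown beside them because even these stayed small. All of the following reached 28 reads in a library, the highest count of the line.

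Largest barcode d: GATCagcgcggggtaggacg

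Largest barcode e: GATCcaaggtggggaggctg

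Largest barcode f: GATCtgtgtaagccggtcgg

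Barcode d reached its 28 reads in 6-OHDA sample 5 and had 11 in vehicle sample 6 and 15 in 6-OHDA sample 3. Barcode e was listed in vehicle sample 2 alone and barcode f in vehicle sample 1 alone. Among barcodes listed in a single library, GATCgttgcgtggaagatgg of vehicle sample 1 came next with 26 reads. In the whole line 4 listings, with 27 reads each, lay between. The largest barcode of any other line, by contrast, held 362023 reads.

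Reads per GATC barcode were narrowly spread, the trait by which the line was chosen. Over all 4843 listings the commonest count was 3 reads, with 601 listings, followed by 4 reads with 565 and 5 reads with 532. Counts of 1 to 10 reads made up 86.2% of listings, and only 32 listings exceeded 20 reads. Across all lines the median was 18 reads and the 99th percentile 15652.

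The values of each library describe the same reads on which the line was chosen. Counting every listing, the median was 6, 6, 7, 5, 5 and 5 reads in vehicle samples 1 to 6 and 4, 3, 5, 5 and 6 reads in 6-OHDA samples 1 to 5. The highest barcode of a library held 18 to 28 reads. The coefficient of variation was 58.9 to 67.9%. The variance of the counts was 1.70 to 3.36 times their mean, where counting error alone would give 1, so the barcodes of a library varied somewhat more than counting error.

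Few of the GATC listings were single reads. Their part was 5.41 to 17.2% in a library, against 21.0 to 56.5% among the other lines of the same libraries. The highest value, 17.2%, belonged to 6-OHDA sample 2, which also had the lowest mean number of reads per barcode. Pooled over libraries, 8.38% of GATC listings held a single read. Of 32 other identifiers 16 were lower and 16 higher, so the line was ordinary in this respect among them. Of the 3 nearest in number of listings, GGAA had 3.89%, TTCC 5.88% and AGGT 10.3%.

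Neighbours of GATC barcodes in sequence were sought at a distance of 1 base only. None of the 4843 listings had a neighbour 1 base away in its own library, which allows a share of up to 0.0619%, and none of the other 32 identifiers differs from GATC by a single base. The deposited counts had already been grouped into clusters, and in the other lines such neighbours were also rare, at up to 1.15% of listings, with 24 of 32 above 0. The last 16 bases were shared with another line of the same library in 1 listing, shown here with its partner.

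Shared listing, GATC: GATCtgtgtggggtgggtag

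Shared listing, partner: ACGAtgtgtggggtgggtag

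Both had 3 reads in vehicle sample 4. Of the other identifiers 29 had a higher share of such listings, up to 1.08%, and 3 a lower share. Over the 12 free positions of distinct barcodes, GATC had 29.8% T, 29.4% G, 22.7% A and 18.1% C. Its GC content of 47.5% lay within the 44.2 to 52.7% of the other identifiers, of which 7 were lower. The base composition was close to that of GGAA, an identifier with a similar number of listings, at 29.7% T, 29.2% G, 22.7% A and 18.4% C.

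The number of GATC barcodes differed widely between libraries. With at least 2 reads, vehicle samples 1 to 6 held 842, 590, 210, 222, 509 and 275 barcodes. The 6-OHDA samples 1 to 5 held 324, 463, 405, 247 and 350. Vehicle samples 1, 2 and 5 lay above every 6-OHDA sample, samples 3 and 4 below every one, and sample 6 among them, so the groups overlapped. Groups that did not overlap were found for 0% of the 54 identifiers tested.

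This number was 441 ± 252 in vehicle (SD, n = 6) and 358 ± 81.8 in the 6-OHDA group (SD, n = 5). The log2 difference, 6-OHDA minus vehicle, was -0.14 (SE 0.37) and did not pass the threshold (exact two-sided permutation p = 0.742, adjusted 0.891 over the 6 comparisons of the line with a value per sample or per pair of samples). It was 0.09 without vehicle sample 1 (exact permutation p = 0.786). In a single fit over all lines, the log2 change of GATC was -0.30, with an SE of 0.50 (quasi-likelihood test of edgeR, adjusted p = 0.635). edgeR called 0% of 54 identifiers, with 11 at an unadjusted p under 0.05, and DESeq2 also called 0, with 9 at an unadjusted p under 0.05. The median log2 change of all identifiers in that fit was 1.17, and 48 of them had more barcodes in the 6-OHDA group, GATC being among the 6 with fewer. With barcode totals as library sizes, adjusted by TMM (a trimmed mean of ratios over identifiers), the change of GATC was -2.07 (edgeR adjusted p = 0.224). That of the median identifier was 0.32, and 36 identifiers were higher and 18 lower.

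The minimum on reads decided how large this difference looked. With at least 5 reads, the log2 difference was -0.41 (exact permutation p = 0.299). With at least 10 reads, vehicle samples held 211, 141, 76, 44, 90 and 63 GATC barcodes and 6-OHDA samples 37, 23, 63, 34 and 77, a log2 difference of -1.07 (exact permutation p = 0.0498). With every listing counted it was -0.08 (exact permutation p = 0.840). A minimum of 10 reads lies above the median of the line in every library, so it keeps only the upper tail of its barcodes.

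For reads per GATC barcode, the difference between the groups missed the threshold by the median, and of the alternative measures only the mean passed. The mean over barcodes with at least 2 reads was 7.04, 7.12, 8.75, 6.56, 6.38 and 6.83 in vehicle samples 1 to 6 and 5.53, 4.46, 6.04, 6.17 and 7.18 in 6-OHDA samples 1 to 5. Vehicle sample 3 lay above every 6-OHDA sample, and 6-OHDA sample 5 lay within the vehicle range. The group values were 7.11 ± 0.849 (SD, n = 6) and 5.88 ± 0.993 (SD, n = 5), which differed by -0.28 on the log2 scale (SE 0.13, exact permutation p = 0.0368, not adjusted). For the median, the main statistic, the difference was -0.25 (SE 0.15) and did not pass (exact permutation p = 0.0887, adjusted 0.177). It passed without 6-OHDA sample 5 (exact permutation p = 0.0286), before any adjustment.

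GATC varied between libraries more in barcode number than in reads per barcode. The highest library had 4.01 times the barcodes of the lowest and 1.96 times the mean reads per barcode. The line was chosen for evenly small reads over the pooled libraries, which limited the spread of reads per barcode but not of barcode number. This contrast is therefore partly set by the choice of the line. Over all samples, barcode number was lower in deeper libraries. On log2 scales its correlation with library reads was r = -0.669 over 11 samples (permutation p = 0.0265, adjusted 0.0398 over 3 relations), with Spearman rho = -0.736 (permutation p = 0.0124, adjusted 0.0218). Without vehicle samples 3 and 5 it was -0.572, and within the 6 vehicle samples -0.817 (exact permutation p = 0.0528, adjusted 0.0792) with rho = -0.829 (exact permutation p = 0.0583, adjusted 0.0875). The 6-OHDA group, with 5 samples, was not correlated on its own. Its shallowest library, sample 2 with 7386328 reads, held the most barcodes, 463. Its deepest, sample 5 with 15427139 reads, held 350, more than the 247 of sample 4 with 9560734 reads. Samples 1 and 3, with 12814698 and 11350748 reads, held 324 and 405. A relation within that group was not tested. Mean reads per barcode showed no detectable relation to depth (r = 0.451, permutation p = 0.163, rho = 0.409, permutation p = 0.212, adjusted 0.163 and 0.212). Within vehicle this relation went from 0.647 (exact permutation p = 0.156) to -0.943 without samples 3 and 5, so it rested on those samples.

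GATC barcodes recurred between libraries often. The 4843 listings came from 3301 distinct barcodes, of which 2140 were found in a single library, 871 in 2, 216 in 3, 58 in 4, 15 in 5 and 1 in 6. Of the distinct barcodes 35.2% recurred, and 2 of the 32 other identifiers had more, GGTT at 40.9% and GGAA at 35.7%. Of the listings 55.8% belonged to recurring barcodes, and 3 identifiers had more, GGTT at 68.9%, GTTG at 61.2% and GGAA at 57.4%. Recurrence was therefore not particular to GATC, and single barcodes of GTTG reached all 11 libraries. Among the distinct barcodes of the other identifiers nearest in number of listings, 26.9% recurred for AGGT and 17.9% for TTCC. Of the ACCC barcodes only 0.120% recurred, and of the CCCC barcodes 0.333%. Recurrence depends on depth and on colony size as well as on the pool, and these shares were not tested against each other.

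Recurring GATC barcodes were no larger than the rest. Relative to the mean of its library, a listing averaged 0.978 for barcodes found once, 1.03 for those found in 2 libraries, 0.993 in 3, 0.975 in 4 and 1.04 in 5, with SDs of 0.600 to 0.668. The median was 5 reads in each of these classes. When a barcode was shared by a pair of libraries, its relative read counts in the pair had almost no correlation over all 2032 shared occurrences (r = -0.00335, a description over barcodes that share libraries).

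Every pair of libraries shared GATC barcodes. The number shared ran from 14 to 120 over the 55 pairs, with a median of 30. The fewest, 14, were shared by vehicle sample 3 and 6-OHDA sample 1 (95% exact Poisson interval 7.65 to 23.5, for counting error only), which was 6.25% and 3.92% of their barcodes. The most, 120, were shared by vehicle samples 1 and 2 (interval 99.5 to 143), which was 13.4% and 19.1% of their barcodes. Libraries with more GATC barcodes shared more of them.

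The overlaps can be put on a common scale by a capture-recapture estimate (Chapman's), which gives the number of barcodes from which both libraries would have been drawn if all were equally likely. For the pair sharing 120 barcodes it was 4675, and for the pair sharing 14 it was 5369. Over the 11 pairs with at least 50 shared barcodes it ran from 4464 to 6414, and over all 55 pairs from 3332 to 7250 with a median of 4943. Its coefficient of variation over pairs was 17.6%. Only 4 identifiers shared at least 10 barcodes in every pair, and among them it was 11.6% for CCTT, 22.6% for AACC and 26.8% for GTTG. For GGAA the estimate ran from 1159 to 5734, for TTCC from 2235 to 11807 and for AGGT from 2403 to 16355. For ACCC and CCCC, where 51 and 49 of the pairs shared no barcode, it gave no usable number.

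GATC overlap was not detectably different within and between the treatment groups. Of the smaller library's barcodes, a mean of 10.8% was shared both within groups and between them, a difference of 0.0134 percentage points (exact permutation p = 0.976). The sign of this difference changed with the measure of overlap and with the samples left out. Over whole groups, 732 distinct barcodes were found in both, 31.6% of the 2320 seen in vehicle and 42.7% of the 1713 seen in the 6-OHDA group.

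GATC held a small and variable share of the reads, the quantity a spike-in would be read from. In reads per 1000000 of the library (RPM), vehicle samples 1 to 6 had 742, 476, 118, 110, 513 and 190. The 6-OHDA samples 1 to 5 had 142, 293, 219, 162 and 164. Vehicle samples 1, 2 and 5 lay above every 6-OHDA sample, samples 3 and 4 below every one, as for barcode number. Of 101 identifiers tested, 1.98% had groups that did not overlap in RPM.

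The group values were 358 ± 258 RPM in vehicle (SD, n = 6) and 196 ± 61.1 RPM in the 6-OHDA group (SD, n = 5). The log2 difference was -0.55 (SE 0.52, exact permutation p = 0.344, adjusted 0.516). Leaving out the reads of the most abundant line, it was -0.98 (exact permutation p = 0.193). In the fit over all lines with TMM scaling, the change of GATC was -1.35 on the log2 scale (SE 0.70, edgeR adjusted p = 0.179), against a median of 0.17 over 101 identifiers, of which 54 were higher and 47 lower. Without TMM scaling it was -0.87 (SE 0.65, edgeR adjusted p = 0.358), against a median of 0.62, with 66 higher and 35 lower. With TMM scaling edgeR called 0% of the identifiers, with 33 at an unadjusted p under 0.05. DESeq2 called 25, GATC not among them (log2 change -1.47, DESeq2 adjusted p = 0.0666).

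If GATC were the spike-in, tumour burden would be proportional to the reads of all other lines per GATC read. This ratio was 1347, 2098, 8458, 9116, 1947 and 5261 in vehicle samples 1 to 6 and 7021, 3415, 4559, 6179 and 6087 in 6-OHDA samples 1 to 5. Vehicle samples 1, 2 and 5 would then carry the lowest burdens of the study and samples 3 and 4 the highest. The vehicle values spanned 6.77-fold and the 6-OHDA values 2.06-fold. On this scale burden was 4704 ± 3450 in vehicle (SD, n = 6) and 5452 ± 1444 in the 6-OHDA group (SD, n = 5), a 1.46-fold difference in geometric mean. It is the inverse of the share above, at 0.55 on the log2 scale (SE 0.52) and with the same p (exact permutation p = 0.344). No difference in burden was detectable at this spread. A number of tumour cells per lung would also need the number of cells added, which is not given in the sources used here.

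GATC had a smaller share of reads where the other lines had more barcodes. On log2 scales the RPM of GATC and the number of other barcodes with at least 2 reads had r = -0.815 over 11 samples (permutation p = 0.00337, adjusted 0.0101), with rho = -0.727 (permutation p = 0.0145, adjusted 0.0218). Without vehicle samples 1 and 5 it was -0.588. Within the 6 vehicle samples it was -0.899 (exact permutation p = 0.0194, adjusted 0.0583), with rho = -0.886 (exact permutation p = 0.0333, adjusted 0.0875), and without samples 3 and 4 it was -0.604. Both quantities come from the same libraries, and deeper libraries had fewer GATC barcodes; the part of depth in this relation was not tested.

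A GATC barcode would be a ruler for colony size if, besides being the spike-in, each of its barcodes stood for 1 added cell and each tumour cell carried 1 cassette. Dividing the reads of the other lines by the mean reads of a GATC barcode then gives the number of tumour genomes sampled by a library. It was 1448960 ± 399016 in vehicle (SD, n = 6) and 1909120 ± 323258 in the 6-OHDA group (SD, n = 5), or 0.43 higher on the log2 scale (SE 0.19, exact permutation p = 0.0671, adjusted 0.177). In 6-OHDA samples 1 and 5 it was above every vehicle sample, and in vehicle samples 1, 2, 5 and 6 below every 6-OHDA sample. It passed, before adjustment, with every GATC listing counted (exact permutation p = 0.0455). Leaving out vehicle sample 3 or 4 also let it pass, at exact permutation p = 0.0476 and 0.0317. The libraries were made from equal amounts of DNA, so this is not a burden of the lung. Other lines held almost all reads, so it is nearly the inverse of the reads of a GATC barcode scaled to library reads. With the median in place of the mean, its log2 difference was 0.39 (exact permutation p = 0.0952). For the GATC median scaled to library reads the difference was -0.39, with the same p (exact permutation p = 0.0952). The number of genomes was lowest, 1007840, in vehicle sample 5, the shallowest library with 6436469 reads. The highest, 2316610, was in 6-OHDA sample 1 with 12814698 reads, and the deepest library, vehicle sample 3 with 15665492 reads, had 1789640. The log2 difference of 0.43 is made up of the -0.28 of the mean reads per GATC barcode, with its sign reversed, and the difference in reads of the other lines. That second part, which follows depth, was not tested on its own.

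Colonies of other lines reached far above a GATC barcode. The largest colony of a library equalled 11276 to 50844 mean GATC barcodes. Barcodes at or below the median of GATC barcodes with at least 2 reads made up 27.9 to 61.8% of the other barcodes, single reads included. Most of this share was single reads, which alone were 21.0 to 56.5% of the other barcodes. Other barcodes at or below the 99th percentile of the same GATC barcodes held only 0.0826 to 0.223% of the other reads. Barcodes of GATC size thus held almost none of the reads of the other lines.

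Counted above the GATC 99th percentile of each library, vehicle samples 1 to 6 held 1791, 3128, 8052, 8483, 1709 and 2806 colonies and 6-OHDA samples 1 to 5 held 11899, 6225, 8121, 5462 and 10947. Vehicle samples 1, 2, 5 and 6 lay below every 6-OHDA sample, and 6-OHDA samples 1 and 5 above every vehicle sample. The log2 difference was 1.22 (SE 0.47), with 8531 ± 2832 colonies against 4328 ± 3104 (SD, n = 5 and 6). It passed the threshold before adjustment (exact permutation p = 0.0455) and not after it (adjusted exact permutation p = 0.177). It also missed the threshold without any single sample except vehicle sample 3 or 4, at exact permutation p-values up to 0.110. At the GATC median it was 1.24 (exact permutation p = 0.0433) and at 10 times that median 1.08 (exact permutation p = 0.0498). These cuts are raw read counts over GATC barcodes with at least 2 reads and were not scaled to library reads. Over every GATC listing, the 99th percentile was 17 to 23 reads in vehicle samples and 11.4 to 17.3 in 6-OHDA samples. A lower cut counts more colonies, and the part of the cut in the difference was not tested. The fewest colonies were in vehicle sample 5, the shallowest library with 6436469 reads. The most were in 6-OHDA sample 1 with 12814698 reads, and the deepest library, vehicle sample 3, had 15665492 reads. The part of depth in the difference was not tested.

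Scaling the other lines by GATC reads shows which of them would differ in burden under the same assumption. edgeR with GATC reads as library size, a fit added after the data had been seen, called 5% of 100 identifiers, all higher in the 6-OHDA group. They were named after their values were seen, and each had at most 0.00716% of all reads. Their fitted changes are not given because a few libraries set them. Per GATC read, AGAT had 1.36 reads in 6-OHDA sample 3 and at most 0.0155 in every other sample. For AGCC the value was 5.19 in 6-OHDA sample 4 and 0.128 in sample 3, with at most 0.0173 elsewhere. For AAGC it was 1.06 in 6-OHDA sample 1 and 0.315 in sample 3, with at most 0.0174 elsewhere. CAGA had 0.413, 0.242 and 1.86 in 6-OHDA samples 3, 4 and 5, at most 0.00384 elsewhere, and was listed in none of vehicle samples 2, 3 and 4. TTCT had 0.0412, 0.0157 and 0.0123 in 6-OHDA samples 2, 3 and 4 and at most 0.00118 elsewhere. The median log2 change on the GATC scale was 0.63. The called number was 0 without 6-OHDA sample 3 or 4, and 1 without vehicle sample 1, 2, 3, 5 or 6. For the 3 lines with the most reads, the log2 changes per GATC read were -0.05 for AACC (SE 0.39, edgeR adjusted p = 0.967), 0.91 for GTTG (SE 0.76, edgeR adjusted p = 0.658) and -0.21 for CCTT (SE 0.52, edgeR adjusted p = 0.927).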

How the data were processed

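Barcode cassettes were amplified by PCR from genomic DNA of 11 lung libraries, per the labels' protocols, and the authors deposited read counts for clusters of barcodes, per the file headers. How reads were clustered is not given in the sources used here. PCR reads carry no molecular identifiers, so intervals cover counting error only. Listings with an undetermined base (4 of 135364) were dropped. Groups and sample numbers came from the sample titles.

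Reads and barcodes with at least 2 reads were summed per identifier and fitted over all identifiers with edgeR 4.0.16 (quasi-likelihood, R 4.3.3), using TMM scaling for reads and equal library sizes for barcodes. Identifiers needed 10 reads in most samples of a group, or 5 barcodes in a sample. DESeq2 1.42.0 was an alternative. Adjusted p-values are Benjamini-Hochberg values, with a threshold of 0.05. Single values were compared on log2 scales (barcode numbers after adding 1) by exact permutation over all 462 splits, whose smallest p is 0.00216. Correlations used 100000 resamples for 11 samples. Fits were tested on simulated data. Python 3.11.15 and scipy 1.17.1 were used.

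Named lines were GATC, those with a lower ratio, the next 2 above it and the 3 nearest in number of listings. Named barcodes were the 3 in most libraries, the 3 highest in a library and the 3 highest among those in a single library. The member line and the lists were chosen with earlier results of these data known. Equal sample numbers were not treated as pairs in the main tests.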

Additional observations from a re-analysis of the deposited data

Results flagged for a closer look

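Of the 10 groups of values examined, a single sample stood far from the rest of its group in 1. The median reads per GATC barcode, over barcodes with at least 2 reads, was 8 in vehicle sample 3 and 6 in each of the other vehicle samples. With the other medians tied, any different value would have stood apart in this way. Vehicle sample 3 was also the deepest library, at 15665492 reads; the part of depth was not tested.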

How the results depend on the processing

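GATC as the line of lowest ratio depended on the rule's minimum. It was at rank 3 of 33 identifiers as stated and at rank 1 of 25 with 500 or more listings of 2 or more reads. With single reads counted, more identifiers reached the minimum and it was at rank 37 of 82. Leaving out a sample moved the log2 difference from -0.31 to 0.089 (without vehicle sample 1) for barcode number, -0.35 to -0.15 for median reads, 0.33 to 0.53 for cell equivalents, 1.01 to 1.48 for colonies above GATC, and -0.81 to -0.26 for RPM. Lines called by edgeR ranged from 0 to 23 for reads, 0 to 3 for barcode number and 0 to 7 on the GATC scale. Over the same runs the overlap difference ranged from -0.535 to 0.460 points. It was -0.0671 points with 2 or more reads and -0.140 points per union. Barcode number passed at 10 or more reads (log2 -1.07), mean in place of median reads passed (-0.28), and cell equivalents passed with every listing counted (0.46). For reads, edgeR called 9 lines without TMM scaling and DESeq2 25, and for barcode number edgeR called 1 line with no filter. The replicate block, pairing equal numbers, left colonies above GATC at 1.16 (exact sign-change p = 0.188, where 5 pairs cannot go below 0.0625, so the lost call says nothing) and 2 lines called on the GATC scale. Deviations of equal-numbered samples correlated between -0.185 and 0.221, and 1 of 5 samples correlated best with its own number. Of 40 alternatives other than leaving out a sample, 29 kept direction and side of the threshold, or a count within 1.5 times. This leaves out 6 whose side of the threshold was set by construction, the sign changes over 5 pairs and the dropping of barcodes 1 base apart, which removed none.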
